A study of Mus musculus with 7 samples.

Results

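The nuclear receptor and coregulator genes described here are 50 of 55384 genes listed, 33 receptor genes and 17 coregulator genes. They were chosen by gene symbol: the retinoid, thyroid hormone, PPAR, LXR, FXR, ROR and estrogen-related receptors, the orphan receptors, the Ncoa coactivators, the nuclear receptor corepressors and 8 further coregulators. Receptors for sex and adrenal steroids, Nr1d1, Nr1d2 and the Nr4a genes were not part of the choice. The RNA was bound to tagged ribosomes of kisspeptin cells in the AVPV (anteroventral periventricular nucleus) of the preoptic area, cells that drive gonadotropin-releasing hormone neurons through the peptide kisspeptin. The 3 E2 libraries came from females treated with estradiol, and the 4 GDX libraries from ovariectomized females without estradiol. All mice of both groups were Kiss1Cre+/Rpl22HA+/+ on a C57BL/6 background, so that Cre driven by Kiss1 switched on an HA tag on the ribosomal protein Rpl22. Each library held RNA from a pool of 4 brains, and the labels do not give age, dose or length of treatment, or say whether the E2 females were ovariectomized too. The comparison asks how estradiol changes ribosome-bound RNA in these cells.

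Nuclear receptors are transcription factors that bind short DNA sequences and change gene activity when a lipid-like ligand such as retinoic acid, thyroid hormone, a fatty acid or an oxysterol occupies them. Retinoic acid receptors, thyroid hormone receptors, PPARs, LXRs and FXR bind DNA mostly as heterodimers with a retinoid X receptor (RXR). Coregulators carry out the response: coactivators of the Ncoa and Mediator groups are recruited by ligand-bound receptors, while corepressors such as Ncor1 hold unliganded receptors with histone deacetylases. Many of these coregulators also bind estrogen receptor alpha, the receptor through which estradiol acts on AVPV kisspeptin neurons.

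Library totals were 30929883 to 33438199 counts in E2 and 29207544 to 36213127 in GDX. Levels are CPM, counts scaled to the library size after TMM (a scaling that assumes most genes do not change), and fold changes are log2, E2 over GDX, with their standard error. Kiss1, the gene that drives the Cre, held 381, 485 and 379 CPM in E2, against 52.1, 44.5, 56.0 and 114 CPM in GDX. It shares 498 of its 779 bp of exon with an entry of the annotated gene Gm28040 on the same strand. That entry averaged 1129 CPM in E2 and 118 CPM in GDX, more than Kiss1, so the level of Kiss1 is uncertain. The tagged gene Rpl22 held 34.5 ± 1.23 CPM in E2 and 30.7 ± 2.73 CPM in GDX. Defining markers of these cells, Esr1, Th and the GABA genes among them, were all detected. The summed level of the list of 10 kisspeptin cell markers was 5056 to 5597 CPM in E2 and 3401 to 3978 CPM in GDX. Of these markers edgeR called 6 higher in E2 (60%, against 2.55% of all genes), Kiss1 and Pgr among them. Only 1 of the 10 markers, Esr1, was lower on average in E2. The list was chosen with earlier results of these data known, so its share of called genes describes the list and tests nothing. Since the libraries are bulk samples, fewer cells of a type and less RNA per cell cannot be told apart.

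With estradiol, 1 of these genes rose and 1 fell past the threshold, and both encode retinoid receptors. Rara, the gene of retinoic acid receptor alpha, rose 1.68-fold, to 15.9 ± 0.742 CPM in E2 (SD, n = 3), against 9.43 ± 0.795 CPM in GDX (SD, n = 4). Rxrg, the gene of RXR gamma, fell to 18.8 ± 1.87 CPM in E2, against 29.5 ± 2.45 CPM in GDX, 0.638 times the GDX level. None of the 17 coregulator genes passed in the edgeR quasi-likelihood test, and most of them lay close to their GDX level. Of 50 genes, 46 passed the filter on low counts, and 2 of 46 were called (4.35%), against 3.88% of all 18282 genes tested. For rises the share of all genes was 2.55% and for falls 1.33%, so the count of called members was close to what the whole table holds. Calls were made at a Benjamini-Hochberg adjusted p under 0.05, over all genes tested. Leaving out a library moved the falls to 2 by adding Rarb without E2 replicate 2, Rxra without E2 replicate 3 or Thra without GDX replicate 4, and the rise was lost without E2 replicate 1.

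**Figure D1:**
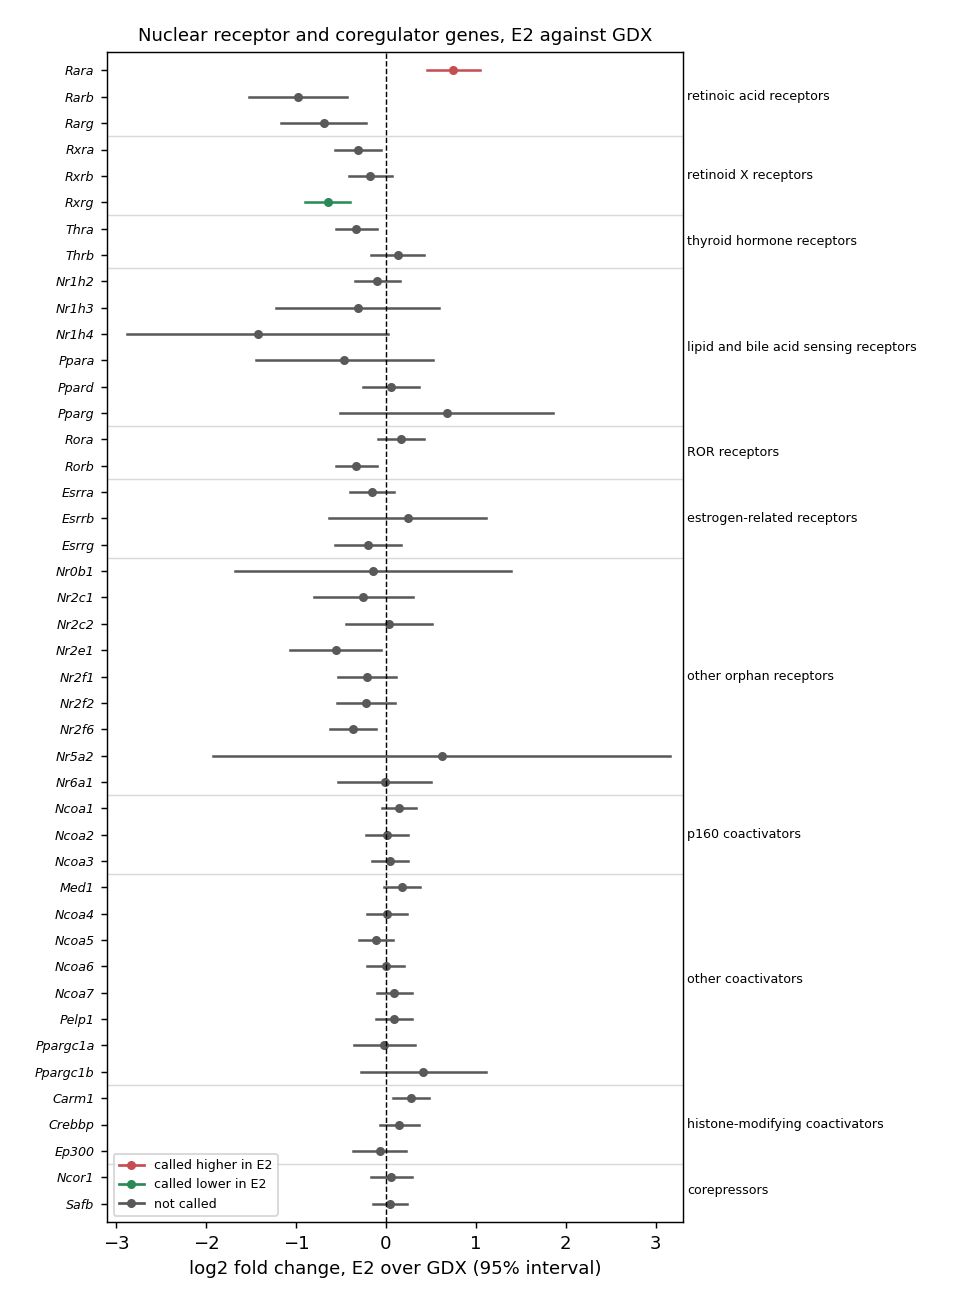
Log2 fold change, E2 over GDX, of 44 tested genes with its 95% interval, ordered from top to bottom by role. Rara (red) lies right of 0 and Rxrg (green) left of it as the 2 called genes, Rarb and Rarg lie left of 0 without a call, and the intervals of the coregulators at the bottom are narrow and near 0 except that of Ppargc1b.

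Rara (ENSMUSG00000037992, chromosome 11, 98927818 to 98974942, plus strand, GRCm38) held 16.6, 15.2 and 15.9 CPM in E2, against 8.78, 8.79, 10.4 and 9.75 CPM in GDX. Every E2 library was above every GDX library, and the libraries within each group lay close together. The log2 fold change was 0.75 ± 0.14 (95% interval 0.45 to 1.05, edgeR quasi-likelihood adjusted p = 0.00813). The call was lost without E2 replicate 1 (log2 fold change 0.72, adjusted p = 0.0641) and with the mean level of astrocyte, oligodendrocyte, microglial and endothelial markers as a covariate (0.65, adjusted p = 0.191), where the size of the change stayed near the value above. Rara shares no exon with another annotated gene.

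Rarb, the gene of retinoic acid receptor beta and itself a classic target of retinoic acid, held 2.90, 4.81 and 2.64 CPM in E2, against 6.30, 7.21, 6.59 and 7.04 CPM in GDX. All E2 libraries lay below all GDX libraries, with E2 replicate 2 the highest of the E2 libraries. The difference, log2 -0.97 ± 0.25, was just short of the threshold (adjusted p = 0.0532). It passed in the DESeq2 Wald test (adjusted p = 0.00421), in limma-voom (0.0235) and without E2 replicate 2 (0.0194). It missed the threshold in edgeR without any other single library (adjusted p = 0.0582 to 0.232) and with the replicate block (0.0787). Rarb shares 1793 bp of its 5265 bp of exon with Top2b on the opposite strand, a gene at 139.5 CPM in E2 and 131 CPM in GDX. In libraries without strand information, the level of Rarb is therefore uncertain. Rarg, the gene of retinoic acid receptor gamma, held 7.61, 5.31 and 8.16 CPM in E2, against 10.5, 14.1, 8.65 and 12.2 CPM in GDX. The groups did not overlap, by a narrow margin between E2 replicate 3 and GDX replicate 3. The difference, log2 -0.69 ± 0.21, missed the threshold in edgeR (adjusted p = 0.114) and passed it in the DESeq2 Wald test (adjusted p = 0.0327).

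As counted, the retinoic acid receptor genes thus stood in different proportions in the groups, though edgeR called only Rara. Reads of Top2b may enter the level of Rarb, and through it the shares and the sum of the 3 genes. Taken per kb of merged exon, so that genes of different length can be set side by side, Rara made up 62.0%, 61.7% and 60.0% of the summed level of the 3 genes in the E2 libraries, against 35.5%, 30.1%, 42.1% and 34.7% in the GDX libraries. Rara held the largest share in every E2 library, and Rarg in 3 of 4 GDX libraries. Rarb made up 8.30% to 16.2% in E2 and 20.5% to 22.1% in GDX. The summed level of the 3 genes overlapped between the groups, at 25.3 to 27.2 CPM in E2 and 25.6 to 30.1 CPM in GDX. These shares describe genes that were already seen to differ, and they were not tested.

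**Figure D2:**
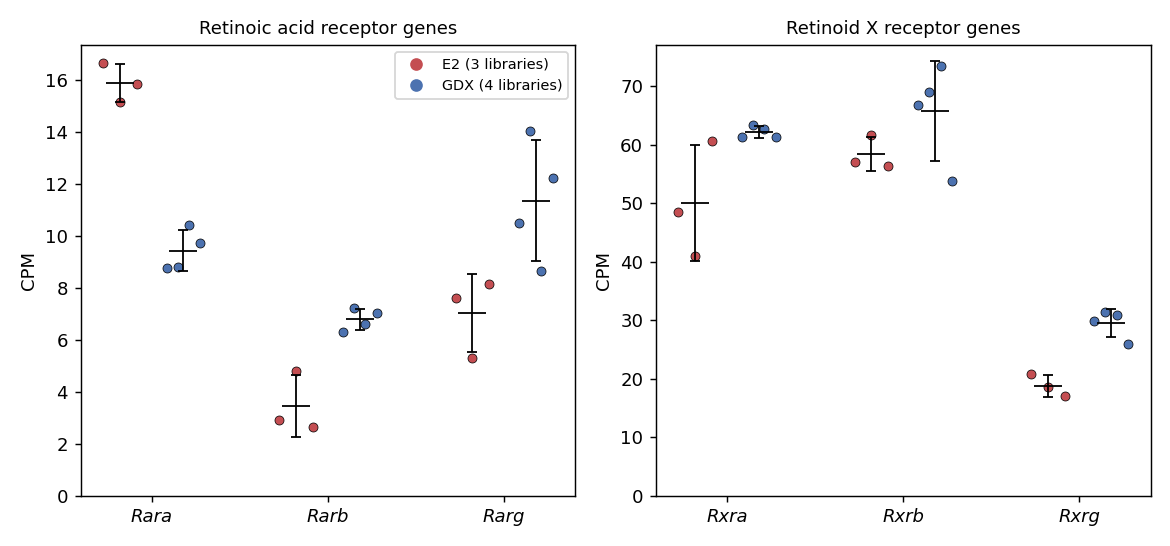
CPM of the retinoic acid receptor genes (left) and the retinoid X receptor genes (right) in each library, with E2 in red left of GDX in blue, and bars for the mean and SD. Rara is higher in all 3 E2 libraries than in any GDX library, whereas Rarb, Rarg, Rxra and Rxrg are lower in all 3.

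RXR gamma is the RXR with the most restricted expression in the brain, while RXR alpha and beta occur widely. Rxrg (ENSMUSG00000015843, chromosome 1, 167598384 to 167639623, plus strand, GRCm38) held 20.8, 18.7 and 17.0 CPM in E2, against 29.9, 31.3, 30.9 and 25.9 CPM in GDX. The groups were well apart, with GDX replicate 4 the lowest of its group. The log2 fold change was -0.65 ± 0.12 (95% interval -0.90 to -0.39, edgeR adjusted p = 0.00777), and the call held in all 18 alternative settings run, with adjusted p values of 2.76e-05 to 0.04996. Rxra held 48.5, 41.0 and 60.6 CPM in E2, against 61.3, 63.5, 62.6 and 61.3 CPM in GDX. All GDX values lay within a narrow band, and E2 replicate 3 lay just below them, and the difference of log2 -0.31 ± 0.12 missed the threshold (adjusted p = 0.195). Without that library it passed (-0.48, adjusted p = 0.0427), and without E2 replicate 2 it was smaller (-0.19, adjusted p = 0.531). Rxrb, the highest of the 3 in both groups at 14.7 CPM per kb in E2 and 16.6 CPM per kb in GDX, held 57.1, 61.7 and 56.3 CPM in E2, against 66.8, 69.1, 73.5 and 53.7 CPM in GDX. Its groups overlapped through GDX replicate 4 (log2 fold change -0.17 ± 0.11, adjusted p = 0.473).

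Summed over the 3 genes, RXR RNA was 121 to 134 CPM in E2 and 141 to 167 CPM in GDX, without overlap. Rxrg made up 22.7% to 28.0% of the summed level per kb in E2 and 31.0% to 32.0% in GDX, while the share of Rxra overlapped between the groups. Per kb, summed RXR RNA exceeded summed retinoic acid receptor RNA in every library: 31.2 to 32.7 against 5.63 to 6.15 CPM per kb in E2, and 36.0 to 43.4 against 5.67 to 6.68 CPM per kb in GDX.

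**Figure D3:**
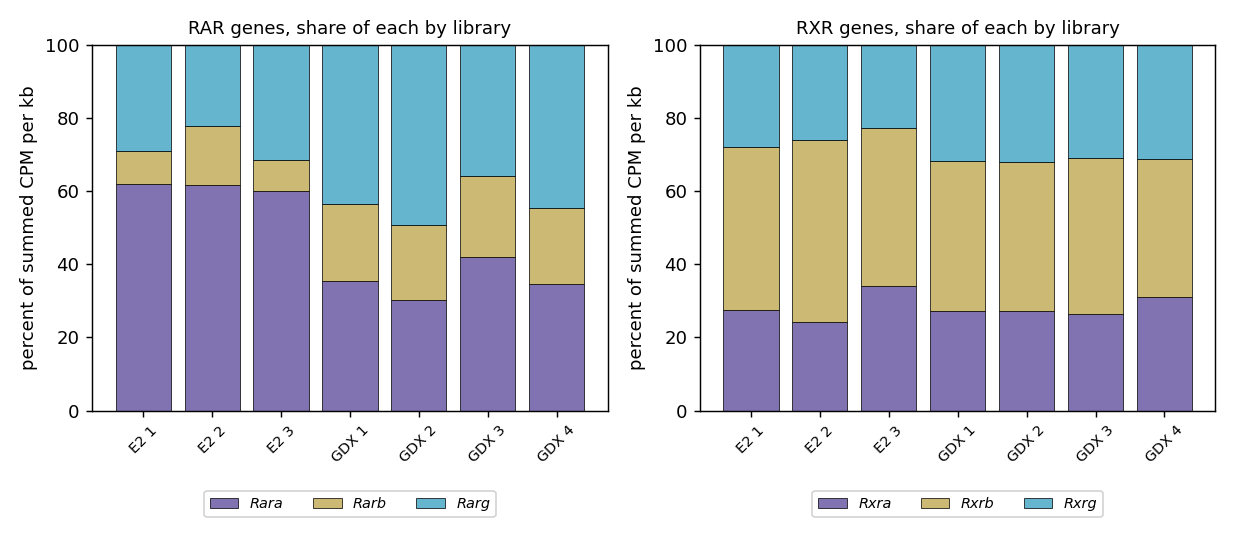
Share of each gene in the summed CPM per kb of the retinoic acid receptor genes (left) and of the RXR genes (right), 1 bar per library, with the 3 E2 libraries left of the 4 GDX libraries. The Rara segment is 60.0% to 62.0% in E2 and 30.1% to 42.1% in GDX, and the RXR bars differ less.

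Promoter windows of the called genes and of Rarb are shown because these receptors bind the hexamer AGGTCA, which is the consensus of their response elements, and tolerate base changes in it, as in the variant AGTTCA or the further variant GGTTCA. Each window runs from 250 bases before to 50 bases after a RefSeq transcript start (GRCm38.p6). Each such hexamer is in capitals, as its reverse complement where it lies on the other strand. Only windows that hold such a hexamer are printed, and the other windows of Rara and Rxrg hold none.
Rarb, chr14:16575427-16575726, minus strand: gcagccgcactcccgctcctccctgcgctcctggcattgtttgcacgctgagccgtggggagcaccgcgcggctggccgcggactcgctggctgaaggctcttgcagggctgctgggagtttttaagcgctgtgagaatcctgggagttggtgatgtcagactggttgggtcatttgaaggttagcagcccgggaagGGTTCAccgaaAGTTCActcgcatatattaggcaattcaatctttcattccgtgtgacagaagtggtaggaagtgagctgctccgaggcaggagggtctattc
Rara, chr11:98939461-98939760, plus strand: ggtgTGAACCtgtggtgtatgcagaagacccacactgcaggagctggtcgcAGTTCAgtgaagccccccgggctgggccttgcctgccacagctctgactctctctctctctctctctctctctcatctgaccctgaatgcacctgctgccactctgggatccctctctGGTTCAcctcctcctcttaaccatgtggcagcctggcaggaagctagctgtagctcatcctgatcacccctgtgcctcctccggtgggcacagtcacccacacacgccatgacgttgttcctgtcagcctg
Rara, chr11:98964622-98964921, plus strand: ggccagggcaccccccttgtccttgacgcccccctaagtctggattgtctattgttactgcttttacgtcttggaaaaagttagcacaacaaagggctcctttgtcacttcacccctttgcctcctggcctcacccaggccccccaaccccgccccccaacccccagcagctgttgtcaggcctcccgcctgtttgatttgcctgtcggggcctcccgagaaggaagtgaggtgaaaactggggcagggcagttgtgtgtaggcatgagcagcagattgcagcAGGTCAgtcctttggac
Rxrg, chr1:167618015-167618314, plus strand: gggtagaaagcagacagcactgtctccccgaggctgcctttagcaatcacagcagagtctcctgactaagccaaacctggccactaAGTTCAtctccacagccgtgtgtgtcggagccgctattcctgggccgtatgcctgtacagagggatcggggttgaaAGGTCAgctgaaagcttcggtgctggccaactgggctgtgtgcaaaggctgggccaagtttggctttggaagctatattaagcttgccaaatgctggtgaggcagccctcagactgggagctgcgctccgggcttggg
The Rarb window holds GGTTCA followed after 5 bases by AGTTCA, a direct repeat, at positions -53 to -37, where the first transcribed base is 1. This repeat, searched on both strands, is in 2 of 32851 promoter windows of that length, and it is the textbook element through which retinoic acid acts on Rarb. The same repeat of the consensus AGGTCA, spaced by 5 bases, is in 3 of those windows. Of the Rara windows 2 of 4 hold a hexamer, and of the Rxrg windows 1 of 2, where 35.0% of all windows hold at least 1. Among all members, 24 of 65 windows hold 1 (36.9%). The estrogen response element, GGTCA and its reverse complement with 3 bases between them, is in none of these 65 windows and in 23 of all 32851 (0.0700%). At that share 65 windows are too few for its absence to set the members apart. The counts do not show which start was in use, and a match is a description of the letters.

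Thyroid hormone receptors bind the hormone T3 and repress or activate genes together with RXR. Thra was by far the most abundant member per kb, at 98.5 CPM per kb in E2 and 124 CPM per kb in GDX, and it made up 96.6% to 97.9% of the summed level of Thra and Thrb in E2 and 97.7% to 98.4% in GDX. It held 407, 475 and 480.3 CPM in E2, against 541, 630.0, 629 and 482 CPM in GDX. The groups did not overlap, but E2 replicate 3 and GDX replicate 4 were nearly equal. The log2 fold change was -0.33 ± 0.10 (adjusted p = 0.116), which passed without GDX replicate 4 (-0.40, adjusted p = 0.0117), in the DESeq2 Wald test (0.0366) and in limma-voom (0.0417). It missed the threshold in edgeR without any other single library (adjusted p = 0.183 to 0.420), and was smallest without E2 replicate 1 (-0.26). Thra shares 263 of its 4614 bp of exon with Nr1d1 on the opposite strand, which fell to 114 CPM in E2, against 153 CPM in GDX (adjusted p = 0.00979), and reads of both cannot be told apart there. Thrb held 22.8, 16.9 and 16.8 CPM in E2, against 16.5, 16.9, 17.2 and 18.3 CPM in GDX, with overlapping groups (log2 fold change 0.13 ± 0.14, adjusted p = 0.710).

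The ROR receptors bind DNA as monomers and include Rorb, which is expressed in sensory and circadian structures of the brain. Rorb held 46.5, 49.1 and 38.7 CPM in E2, against 55.7, 50.7, 59.3 and 59.3 CPM in GDX. Its E2 libraries were all below its GDX libraries (log2 fold change -0.33 ± 0.10, adjusted p = 0.119, and 0.0473 in DESeq2). Rora held 26.7, 30.0 and 24.5 CPM in E2, against 27.0, 22.5, 22.0 and 25.1 CPM in GDX, with overlapping groups (log2 fold change 0.16 ± 0.12, adjusted p = 0.542).

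Of the receptors that sense lipids and bile acids, 6 of 7 passed the filter and none was called in edgeR, DESeq2 or limma-voom, nor did any have an unadjusted p under 0.05. Over all tested genes edgeR called 3.88%, and 16.8% had an unadjusted p under 0.05, so 6 genes are too few for this to set them apart. Nr1h2, which encodes the oxysterol receptor LXR beta, was the highest per kb and held 35.8, 35.8 and 39.9 CPM in E2, against 41.7, 43.9, 40.9 and 32.1 CPM in GDX. Ppard, the gene of PPAR delta, held 13.5, 16.7 and 14.1 CPM in E2, against 16.7, 13.5, 13.2 and 13.4 CPM in GDX. The groups of both genes overlapped, with log2 fold changes of -0.09 ± 0.11 for Nr1h2 and 0.06 ± 0.14 for Ppard. The other tested genes were low in every library. Nr1h3 (LXR alpha) averaged 1.77 ± 0.540 CPM in E2 and 2.20 ± 1.09 CPM in GDX, Ppara 1.08 ± 0.410 CPM in E2 and 1.49 ± 0.631 CPM in GDX and Pparg, the target of glitazone drugs, 1.14 ± 0.749 CPM in E2 and 0.711 ± 0.232 CPM in GDX. Nr1h4, the gene of the bile acid receptor FXR, did not overlap between groups at 0.154, 0.297 and 0.165 CPM in E2 and 0.382, 0.939, 0.357 and 0.559 CPM in GDX, values of few counts that differed by log2 -1.42 ± 0.66 (edgeR adjusted p = 0.308, with none given by DESeq2). At these levels the 95% intervals were wide, at -0.51 to 1.86 for Pparg, -1.22 to 0.59 for Nr1h3, -1.45 to 0.52 for Ppara and -2.88 to 0.03 for Nr1h4. That of Pparg holds a rise of the size seen for Rara. Those of Nr1h3, Ppara and Nr1h4 end below such a rise but hold a fall of the size seen for Rxrg.

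The estrogen-related receptors are orphan receptors that bind no estrogen and control genes of energy metabolism. Esrra, the highest per kb, held 18.2, 21.4 and 19.7 CPM in E2, against 22.3, 23.8, 20.2 and 21.8 CPM in GDX. Esrrg held 8.41, 8.73 and 6.74 CPM in E2, against 9.43, 9.73, 8.35 and 9.05 CPM in GDX. Both genes overlapped between groups, at log2 fold changes of -0.16 ± 0.11 for Esrra and -0.20 ± 0.17 for Esrrg. Esrrb was near 1 CPM, at 1.24 ± 0.0912 CPM in E2 and 1.05 ± 0.308 CPM in GDX, and none of the 3 was called by edgeR, DESeq2 or limma-voom or had an unadjusted p under 0.05. In edgeR the shares over all tested genes were 3.88% called and 16.8% at that unadjusted p.

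Among the other orphan receptors, 9 of 12 were tested and none was called in edgeR, DESeq2 or limma-voom. In edgeR 2 were at an unadjusted p under 0.05, Nr2f6 and Nr2e1 (22.2%, against 16.8% of all tested genes). With 3.88% of all tested genes called by edgeR, 9 genes are too few for the lack of calls to set them apart. Nr2f6, a COUP-TF relative that represses transcription, held 26.6, 37.0 and 36.1 CPM in E2, against 42.3, 42.4, 44.1 and 42.9 CPM in GDX. The GDX libraries lay within a narrow band above all E2 libraries, of which E2 replicate 1 was the lowest (log2 fold change -0.37 ± 0.12, adjusted p = 0.119). Without that library the log2 fold change was -0.23 (adjusted p = 0.375). Nr2f6 shares 1622 of its 2983 bp of exon with Ocel1 on the opposite strand (11.5 CPM in E2 and 11.01 CPM in GDX), which leaves its level uncertain. Nr2e1, known as Tlx and a regulator of neural stem cells, held 4.99, 4.42 and 3.34 CPM in E2, against 6.63, 7.28, 6.26 and 4.89 CPM in GDX. Its groups overlapped through GDX replicate 4 (log2 fold change -0.56 ± 0.23, adjusted p = 0.245).

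The COUP-TF genes Nr2f1 and Nr2f2, which pattern the developing brain, averaged 17.8 ± 2.07 CPM in E2 and 20.6 ± 3.22 CPM in GDX for Nr2f1 and 25.8 ± 6.30 CPM in E2 and 30.1 ± 1.25 CPM in GDX for Nr2f2, with overlapping groups. Nr2c2, which encodes the testicular receptor TR4, held 76.2, 46.2 and 73.7 CPM in E2, against 65.0, 61.2, 48.9 and 79.7 CPM in GDX. It varied more between libraries of 1 group than between the groups, and it shares 4590 bp of exon with Mrps25 on the opposite strand. Nr2c1 averaged 7.04 ± 1.88 CPM in E2 and 8.39 ± 2.09 CPM in GDX, and Nr6a1 (germ cell nuclear factor) 4.22 ± 0.919 CPM in E2 and 4.27 ± 0.219 CPM in GDX. Nr5a2, the gene of LRH-1, was scattered at 0.925, 1.58 and 0.0330 CPM in E2 and 0.218, 0.0335, 1.43 and 0.503 CPM in GDX, and Nr0b1 (Dax1) at 0.740, 0.231 and 0.562 CPM in E2 and 0.136, 0.570, 0.522 and 1.03 CPM in GDX.

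The 4 members that did not pass the filter were Nr0b2, Nr1h5, Nr2e3 and Nr5a1. Nr5a1, the gene of steroidogenic factor 1 that marks the ventromedial hypothalamus, reached 0.0308 CPM in E2 and 0.137 CPM in GDX. Nr0b2 reached 0.0838 CPM in GDX and was at 0 in all E2 libraries, Nr1h5 reached 0.0330 CPM in 1 E2 library, and Nr2e3, known from photoreceptors, was at 0 in all 7. A count of 0 allows a level of up to 0.0925 to 0.0991 CPM in the E2 libraries and 0.0818 to 0.101 CPM in the GDX libraries (3 counts, counting error only).

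**Figure D4:**
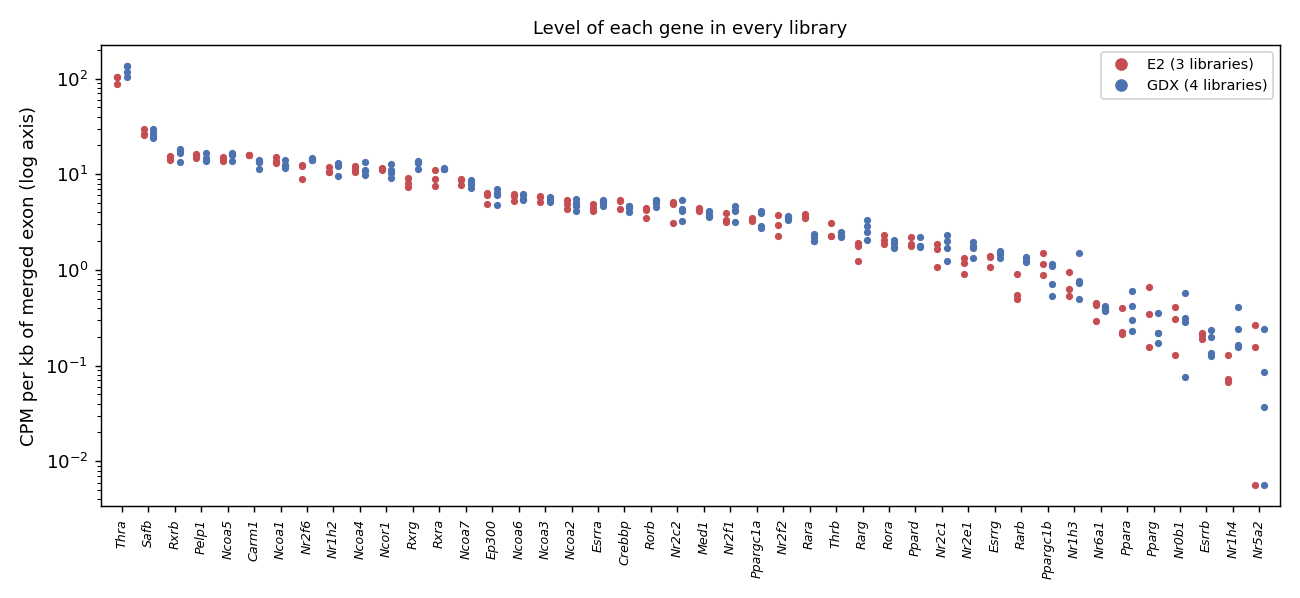
CPM per kb of merged exon (log axis) of 44 tested genes in each library, ordered by mean level, with E2 in red left of GDX in blue. Thra stands above all others, the coregulators lie mostly among the higher genes, and Nr5a2, Nr1h4, Esrrb and Nr0b1 are at the low end.

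All 17 coregulator genes passed the filter, and none was called in edgeR, DESeq2, limma-voom or any other of the 18 alternative settings run. With 3.88% of all tested genes called by edgeR, 0 of 17 is near the share of the whole table. Only Carm1 had an unadjusted p under 0.05 in edgeR (5.88%, against 16.8% of all tested genes). Among the 16 coregulator genes with at least 10 CPM, log2 fold changes ran from -0.11 to 0.28. Their 95% intervals reached no lower than 0.774 and no higher than 1.39 times the GDX level, so changes of the size seen for Rara or Rxrg lay outside the interval of each of them.

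The p160 coactivators bind ligand-occupied receptors directly. Ncoa1 (SRC-1), the highest of them per kb, held 128, 112 and 118 CPM in E2, against 99.7, 107, 104 and 120.4 CPM in GDX. Ncoa3 held 46.9, 40.6 and 46.2 CPM in E2, against 45.7, 44.4, 40.1 and 42.9 CPM in GDX. Both overlapped between groups, and so did Ncoa2 at 75.6 ± 7.93 CPM in E2 and 75.1 ± 8.74 CPM in GDX. Log2 fold changes were 0.15 ± 0.09 for Ncoa1, 0.01 ± 0.11 for Ncoa2 and 0.04 ± 0.09 for Ncoa3.

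The coactivators CBP (Crebbp) and p300 (Ep300) acetylate histones, and Carm1 methylates arginines of histones and of coactivators. Carm1 held 77.6, 76.4 and 76.5 CPM in E2, against 64.9, 68.8, 54.6 and 64.8 CPM in GDX. All E2 libraries were above all GDX libraries and almost equal among themselves (log2 fold change 0.28 ± 0.09, 95% interval 0.08 to 0.48, adjusted p = 0.125). Carm1 shares 1025 of its 4852 bp of exon with Yipf2 on the opposite strand, at 30.3 CPM in E2 and 28.6 CPM in GDX. Ep300 held 91.0, 70.1 and 85.7 CPM in E2, against 86.9, 90.3, 67.4 and 101 CPM in GDX. Crebbp averaged 66.9 ± 7.68 CPM in E2 and 60.5 ± 4.40 CPM in GDX, and the groups of Ep300 and Crebbp overlapped.

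Of the other coactivators, Pelp1, a scaffold for estrogen receptor signalling outside and inside the nucleus, held 52.6, 58.6 and 56.9 CPM in E2, against 48.6, 50.5, 58.7 and 53.2 CPM in GDX. Ncoa5 held 66.4, 60.8 and 63.2 CPM in E2, against 72.5, 70.5, 70.0 and 60.5 CPM in GDX. Neither separated the groups. Med1, the Mediator subunit that receptors contact, averaged 37.8 ± 1.38 CPM in E2 and 33.3 ± 2.33 CPM in GDX (log2 fold change 0.18 ± 0.09, adjusted p = 0.369). Ncoa4, which also carries ferritin to lysosomes, averaged 107 ± 7.07 CPM in E2 and 106 ± 13.9 CPM in GDX, Ncoa6 56.1 ± 4.92 CPM in E2 and 56.2 ± 3.87 CPM in GDX and Ncoa7 89.3 ± 6.58 CPM in E2 and 83.8 ± 6.68 CPM in GDX. Ppargc1a, the gene of the mitochondrial coactivator PGC-1 alpha, averaged 22.3 ± 0.787 CPM in E2 and 22.5 ± 4.69 CPM in GDX. Its relative Ppargc1b was the lowest of the coregulators, at 4.67 ± 1.23 CPM in E2 and 3.49 ± 1.20 CPM in GDX, with a 95% interval of -0.27 to 1.11 for its log2 fold change.

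The corepressors hold back transcription at unliganded or repressed receptors. Safb, the gene of a scaffold protein that represses estrogen receptor alpha, had the highest level per kb of all 17 coregulators and held 191, 188 and 217 CPM in E2, against 183, 195, 215 and 174 CPM in GDX. Ncor1, a platform for histone deacetylases, averaged 145 ± 3.80 CPM in E2 and 139 ± 20.5 CPM in GDX. The groups of both genes overlapped, with log2 fold changes of 0.05 ± 0.09 for Safb and 0.06 ± 0.10 for Ncor1.

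Across the 46 tested genes, the levels of 11 did not overlap between the groups (23.9%), against 16.5% of all tested genes. Of these, Rara and Carm1 were higher in E2 (4.35% of members, 8.43% of all genes). The 9 others were lower in E2 (19.6% of members, 8.06% of all genes), and all 9 were receptors, among them Rarb, Rarg, Rxra, Rxrg, Thra, Rorb, Nr2f6 and Nr1h4. At an unadjusted p under 0.05 there were 2 higher and 8 lower members (4.35% and 17.4%), against 7.88% and 8.89% of all genes. The median log2 fold change was -0.21 over the 29 tested receptors and 0.05 over the 17 coregulators, beside 0.00403 over all tested genes. Of the receptors 21 had a negative and 8 a positive log2 fold change, and of the coregulators 4 and 13. These counts and medians describe a chosen list, and no test was made over it.

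**Figure D5:**
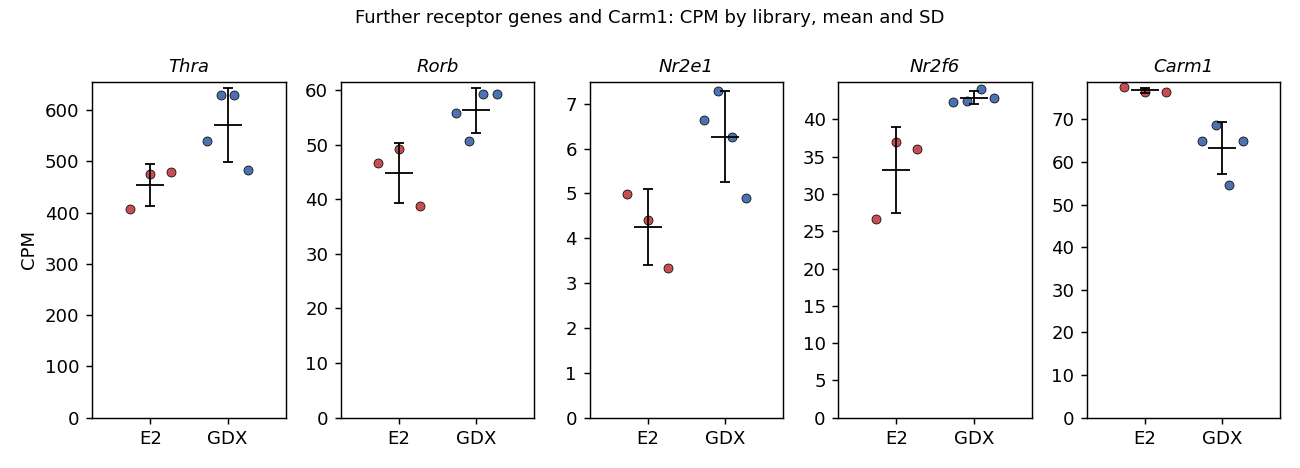
CPM of Thra, Rorb, Nr2e1, Nr2f6 and Carm1 in each library, with E2 in red left of GDX in blue and bars for the mean and SD, each panel on its own axis from 0. The E2 libraries lie below the GDX libraries for Thra, Rorb and Nr2f6, above them for Carm1, and overlap with GDX replicate 4 for Nr2e1.

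Markers of most other cell types were lower in E2 on average, as were many receptors. Astrocyte markers were lower on average in E2 for 10 of 10 genes, with a summed level of 1260.0 to 1479 CPM in E2 and 1597 to 3721 CPM in GDX, and those of ependymal cells and tanycytes for 8 of 10 genes, with 88.5 to 162 CPM in E2 and 207 to 676 CPM in GDX. Neither sum overlapped between the groups. Endothelial markers were lower for 10 of 10 genes, oligodendrocyte markers for 9 of 10 and microglial markers for 5 of 10. Their sums overlapped, at 160.5 to 259 CPM in E2 and 243 to 746 CPM in GDX for endothelial, 2751 to 3265 and 2952 to 6090.2 CPM for oligodendrocyte and 135 to 166 and 136 to 163 CPM for microglial genes. The sum of 10 general neuronal markers was 5284 to 5598 CPM in E2 and 4935 to 5324 CPM in GDX. Of these edgeR called 1 higher (10%, against 2.55% of all genes). Markers of neighbouring neurons, vasopressin and oxytocin cells among them, summed to 189 to 220.4 CPM in E2 and 169 to 334 CPM in GDX. That sum joins genes that went opposite ways, at log2 fold changes of -1.23 to 3.45. Of the 12 tested, edgeR called 1 higher and 2 lower (8.33% and 16.7%, against 2.55% and 1.33% of all genes). No marker was at 0 in all libraries, and of the non-neuronal markers only Rarres2, an ependymal gene, was called.

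The astrocyte, endothelial and ependymal sums were highest in GDX replicates 1 and 4. Without these 2 libraries, a setting chosen after the data were seen, the log2 fold change of Rxrg was -0.73 (adjusted p = 0.00293) and that of Rara 0.72 (adjusted p = 0.0197), both as large as or close to the values with all libraries. Thra was called there (-0.48, adjusted p = 0.00281), while Rarb (adjusted p = 0.0922) and Rarg (adjusted p = 0.180) were not. With the marker score as a covariate, Rxrg kept its call (-0.79, adjusted p = 0.0222). The score was 5.03 to 5.31 in E2 and 5.31 to 6.03 in GDX (mean log2 CPM), so its effect and that of treatment cannot be told apart in full. For the lower receptors without a call, the log2 fold change with the covariate was -0.97 for Rarb, -0.64 for Rarg, -0.31 for Rxra, -0.47 for Thra, -0.35 for Rorb, -0.31 for Nr2f6 and -1.56 for Nr1h4, and edgeR called none of these 7 there. Without the covariate they were -0.97 for Rarb, -0.69 for Rarg, -0.31 for Rxra, -0.33 for Thra, -0.33 for Rorb, -0.37 for Nr2f6 and -1.42 for Nr1h4.

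Genes that make, carry or answer the ligands of these receptors included a few called genes, and their shares stand beside those of all tested genes. Of 15 tested genes of retinoid handling 1 rose and none fell (6.67% and 0%, against 2.55% and 1.33% of all genes), with a median log2 fold change of -0.31. The 1 that rose was Ttr, the gene of transthyretin, a carrier of thyroxine and of retinol-binding protein that is made mostly by the choroid plexus. It held 12.5, 15.03 and 9.74 CPM in E2, against 2.78, 3.96, 4.51 and 2.90 CPM in GDX (log2 fold change 1.81 ± 0.23, edgeR adjusted p = 0.000704). Aldh1a1 and Aldh1a2 make retinoic acid and did not pass. Aldh1a1 held 15.9, 21.0 and 13.4 CPM in E2, against 50.3, 12.9, 15.5 and 65.5 CPM in GDX (adjusted p = 0.504). Aldh1a2 held 3.61, 3.69 and 3.27 CPM in E2, against 2.02, 1.78, 1.76 and 43.8 CPM in GDX (adjusted p = 0.648), and without GDX replicate 4 its log2 fold change turned to 0.93 (adjusted p = 0.105).

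Of 17 tested genes of thyroid hormone handling and response 1 rose, again Ttr, and 1 fell (5.88% and 5.88%, against 2.55% and 1.33% of all genes), with a median log2 fold change of -0.37. Trhr, the receptor gene for thyrotropin-releasing hormone, fell to 8.44 ± 1.56 CPM in E2, against 14.0 ± 1.97 CPM in GDX (log2 fold change -0.73 ± 0.18, adjusted p = 0.0439). That call was lost without E2 replicate 1 or 3 or GDX replicate 1 or 2, at log2 fold changes of -0.71 to -0.63 (adjusted p = 0.103 to 0.201), and with the covariate (-0.55, adjusted p = 0.476). The deiodinase genes Dio2 and Dio3, whose enzymes activate and inactivate thyroid hormone, were low and did not pass, at 2.15 ± 0.192 CPM in E2 and 2.40 ± 0.331 CPM in GDX for Dio2 and 1.23 ± 0.731 CPM in E2 and 1.14 ± 0.555 CPM in GDX for Dio3. Without GDX replicate 4 the list held 5 called genes.

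Of 26 PPAR and LXR target genes none rose and 1 fell (0% and 3.85%, against 2.55% and 1.33% of all genes), with a median log2 fold change of -0.27. Acot1, a thioesterase gene that PPAR alpha induces, held 14.5, 12.9 and 15.4 CPM in E2, against 23.4, 20.5, 22.4 and 24.4 CPM in GDX (log2 fold change -0.67 ± 0.12, adjusted p = 0.00811), with no overlap. Acot1 has the close copy Acot2, so its counts are uncertain, and its call was lost without E2 replicate 2 (log2 fold change -0.60, adjusted p = 0.0530) and with the covariate (-0.58, adjusted p = 0.155). The cholesterol exporters Abca1 and Abcg1, targets of LXR, missed the threshold in edgeR, Abca1 at -0.60 ± 0.22 (adjusted p = 0.202) and Abcg1 at -0.20 ± 0.08 (adjusted p = 0.230). Abca1 passed in the DESeq2 Wald test (adjusted p = 0.0464) and without GDX replicate 3 (-0.76, adjusted p = 0.0182). Its log2 fold change was -0.39 without GDX replicate 4 and -0.0765 with the covariate. Without GDX replicate 3 the list held 4 called genes.

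Of 42 further coregulator and chromatin partner genes 2 rose and 1 fell (4.76% and 2.38%, against 2.55% and 1.33% of all genes), with a median log2 fold change of 0.01. Nrip1, an estrogen-induced corepressor gene, held 64.9, 47.6 and 45.9 CPM in E2, against 17.4, 13.4, 15.9 and 19.5 CPM in GDX (log2 fold change 1.67 ± 0.15, adjusted p = 6.04e-05). The CITED proteins bind CBP and p300, and their genes moved apart. Cited1, which also coactivates estrogen receptor alpha, rose to 52.8 ± 0.788 CPM in E2, against 28.6 ± 7.40 CPM in GDX (log2 fold change 0.89 ± 0.17, adjusted p = 0.0137). Cited2 held 35.3, 31.3 and 31.1 CPM in E2, against 53.4, 64.2, 66.7 and 56.6 CPM in GDX. It fell (log2 fold change -0.89 ± 0.10, edgeR adjusted p = 0.000402), with no overlap. The Cited1 call was lost without GDX replicate 1 or any E2 replicate, at log2 fold changes of 0.84 to 0.90 (adjusted p = 0.0511 to 0.0821). With the covariate the log2 fold change was smaller, at 0.53 (adjusted p = 0.219). Lcor, a corepressor gene, did not pass in edgeR at 3.76 ± 1.22 CPM in E2 and 3.76 ± 0.812 CPM in GDX. Tbl1x, a subunit of corepressor complexes, missed the threshold in edgeR (log2 fold change -0.29 ± 0.08, adjusted p = 0.0639) and passed it in the DESeq2 Wald test (0.0101), with upper-quartile factors (0.0437) and with a filter at a mean of 5 CPM (0.0375).

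Of the 7 steroid receptor genes, Pgr rose and Nr3c1, the glucocorticoid receptor gene, fell. Pgr averaged 117 ± 12.9 CPM in E2 and 28.3 ± 3.95 CPM in GDX (log2 fold change 2.05 ± 0.12, edgeR adjusted p = 1.42e-06), and Nr3c1 averaged 75.0 ± 7.27 CPM in E2 and 102 ± 13.8 CPM in GDX (-0.44 ± 0.11, adjusted p = 0.0473), a call lost without any 1 of the E2 libraries or GDX replicate 1 or 2, at log2 fold changes of -0.52 to -0.39 (adjusted p = 0.0587 to 0.196) and with the covariate (-0.34, adjusted p = 0.499). Esr1 averaged 194 ± 16.8 CPM in E2 and 255 ± 36.8 CPM in GDX and missed the threshold in edgeR (log2 fold change -0.39 ± 0.11, adjusted p = 0.0901). It passed in the DESeq2 Wald test (adjusted p = 0.0151) and without GDX replicate 1 (-0.47, adjusted p = 0.0279).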

How the data were processed

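Ribosome-bound polyadenylated RNA was sequenced without strand information, per the labels' protocols. The values deposited are expected counts of genes, of which 33.1% of those above 0 are not whole. Trimmomatic 0.38, STAR 2.6.0a, RSEM 1.3.0 and mm10 are named, without role or order, per the submitters' processing notes, and the annotation is not given in the sources used here. GENCODE vM21 (GRCm38) gave symbols and merged exon lengths for 55117 of 55384 identifiers. Expected counts were rounded and fitted in R 4.3.3 with edgeR 4.0.16 (TMM, filterByExpr with a minimum count of 10 and total of 15, robust quasi-likelihood, prior count 0.125), E2 against GDX over all 7 libraries. Standard errors are the log2 fold change over the root of the F statistic, and p-values measure spread between pools. DESeq2 1.42.0, limma 3.58.1, other scalings and filters, a replicate block, a marker covariate and left-out libraries were alternatives. The fits were tested on simulated data.

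Members and lists were chosen with earlier results of these data known. Library values are given for members that were called or did not overlap, and for the 2 highest per kb in each role. From each list up to 4 called genes and the first 2 not called are named, with steroid receptors, Kiss1 and Rpl22. All 42 members with a RefSeq promoter window were searched for motifs. Some members enter the counts and are not reported here one by one.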

Additional observations from a re-analysis of the deposited data

Results flagged for a closer look

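In 3 of 67 genes examined, 1 GDX library stood far from the other 3, with a gap to its nearest neighbour, relative to the group's range, above Dixon's 95% critical value for 4 samples. Chance flags about 1 in 20 groups. Ppard was at 16.7 CPM in GDX replicate 1 and at 13.2 to 13.5 CPM in the others. Aldh1a2 was at 43.8 CPM in GDX replicate 4 and at 1.76 to 2.02 CPM in the others. Kiss1 was at 114 CPM in GDX replicate 4 and at 44.5 to 56.0 CPM in the others, and its level is uncertain because an annotated gene shares its exons. The groups of 3 E2 libraries are too small for this rule.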

How the results depend on the processing

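With all libraries edgeR called 467 genes higher and 243 lower, 1 member higher and 1 lower, and 1 gene of retinoid handling, 2 of thyroid hormone handling, 1 PPAR or LXR target and 3 further coregulators. The counts below give only what moved by more than 1.5 times, and the cause was not tested. With no filter on low counts 33537 genes and 49 members were tested, against 18282 and 46 with the main filter. There 722 genes were higher and 887 lower, with 7 members lower, 7 thyroid hormone genes and 7 PPAR or LXR targets. With a mean of at least 5 CPM 2 of 36 tested members were lower. Of 18282 genes and 46 members, the DESeq2 Wald test gave 721 genes lower, 5 members lower, 5 thyroid hormone genes and 4 PPAR or LXR targets. Over the same genes limma-voom gave 398, 3, 5 and 2. With the non-neuronal covariate 225 genes were higher and 97 lower, with 0 members higher and 0 PPAR or LXR targets. At an adjusted p under 0.01 there were 275 higher, 85 lower and 1 thyroid hormone gene. Library sizes alone and the removal of GDX replicates 1 and 4, both chosen after seeing the data, gave 2 and 2 members lower, with 6 thyroid hormone genes in the second. Rises were 65.8% of all calls, 52.2% with library sizes alone, 44.9% without a filter and 48.2% with DESeq2.

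Leaving out 1 library gave 268 to 591 genes higher, 96 to 428 lower, 0 to 1 members higher, 1 to 2 lower, 1 to 5 thyroid hormone genes and 0 to 4 PPAR or LXR targets. Over all settings the members' median log2 fold change ran from -0.0787 to 0.0535. Same-numbered E2 and GDX libraries did not deviate together (correlations of deviations -0.0205, -0.0380 and -0.0555). With so few libraries this cannot settle whether they were collected as numbered sets. With the replicate block 2 members were lower, with Thra added, and 2 retinoid handling genes were called. The second was Aldh1a2, with its direction turned (adjusted p = 0.0419), and the block ended the calls of Trhr (-0.70, adjusted p = 0.0546) and Nr3c1 (-0.35, adjusted p = 0.0620). Directions turned for 4 named genes that edgeR did not call with all libraries. Aldh1a1 was 0.57 with the covariate and 0.23 without GDX replicates 1 and 4. Aldh1a2 was 0.33 with limma-voom, 0.93 with the replicate block, 1.41 with the covariate and 0.99 without those 2 libraries, and -2.17 to 0.93 with 1 library left out. Dio3 was -0.39 with limma-voom and -0.14 with the block, and -0.36 to 0.50 with 1 library left out. Lcor, near 0 throughout, was -0.00314 with DESeq2 size factors, -0.0158 with upper-quartile factors, -0.000745 without a filter, -0.00263 in DESeq2, -0.0291 in limma-voom, -0.0589 with library sizes alone and -0.18 to 0.25 with 1 library left out. Genes near or under 1 CPM rest on few counts, which widens their intervals.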
